A study of Caenorhabditis elegans with 2 samples.

Results

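The peaks described here are the places between genes on the 5 autosomes of Caenorhabditis elegans where the transcription factor ELT-2 was found in first-stage larvae. A peak counted as intergenic when its summit, the position of highest enrichment, lay in no protein-coding gene body and in no promoter. A promoter was taken as the stretch reaching 1000 bp upstream to 200 bp downstream of any protein-coding transcript 5′ end. The summit also had to lie more than 200 bp from any tRNA, snRNA or snoRNA gene. Of the 5443 peaks that passed the reproducibility threshold (irreproducible discovery rate, IDR), 4255 lay on autosomes and 886 of these met the rule. Among the thresholded peaks the rule uses position alone, and strength, motifs and replicate agreement did not enter it. The thresholded list itself was admitted on the ranks of peaks in both replicates, so members are not free of selection on strength and agreement.

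The worms were hermaphrodites of strain OP56, whose genotype is unc-119(ed3) III with the transgene wgIs56, which encodes ELT-2 with a C-terminal GFP-FLAG tag. They were collected as L1 larvae 6 h after synchronization, which followed starvation after bleaching, and the tagged protein was precipitated with anti-GFP antibody, although the antibody field of the labels names elt-2. There was 1 group of 2 biological replicates, no wild-type or treated group, and chromatin came from whole organisms, so cells of every tissue were mixed. The files hold peaks and not reads, so the depth of each replicate is unknown, and all intervals below cover counting error over the peaks of this 1 experiment only.

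ELT-2, a GATA factor with zinc fingers, is the principal regulator of genes of the worm intestine, where it acts on digestive enzymes, transporters, immune effectors and its own gene. GATA factors recognise short sites built around the letters GATA, and the worm intestinal factors favour the longer form TGATAA. Most mapped ELT-2 sites of intestinal genes lie close upstream of the gene, and intergenic peaks are those that the usual promoter window leaves out. The name given to a peak below is that of the protein-coding gene with the nearest 5′ end. This describes its place and does not show which gene, if any, responds to it.

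The sequences of the strongest members are shown first. Each sequence spans the summit and 50 bases of ce11 on either side, read 5′ to 3′ on the forward strand from the RefSeq genome, in lower case with every TGATAA or its reverse complement in capitals. The first 6 are the strongest members on 4 of the autosomes, in order of signal. They lie at chrIV:13919360-13919460, chrIII:154331-154431, chrV:18346204-18346304, chrII:6026800-6026900, chrII:5202091-5202191 and chrII:4770020-4770120.
Y37A1A.2: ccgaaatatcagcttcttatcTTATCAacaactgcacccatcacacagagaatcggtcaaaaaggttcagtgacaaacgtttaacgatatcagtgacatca
zig-13: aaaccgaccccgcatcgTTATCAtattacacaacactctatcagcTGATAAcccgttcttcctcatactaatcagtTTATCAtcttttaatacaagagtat
C08E8.3: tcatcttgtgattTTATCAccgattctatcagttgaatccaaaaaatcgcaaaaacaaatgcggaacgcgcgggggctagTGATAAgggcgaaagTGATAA
R12C12.9: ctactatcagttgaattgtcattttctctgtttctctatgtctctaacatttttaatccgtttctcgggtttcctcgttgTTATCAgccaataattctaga
ampd-1: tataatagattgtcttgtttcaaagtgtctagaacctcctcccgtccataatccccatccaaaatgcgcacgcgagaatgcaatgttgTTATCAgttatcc
F26G1.5: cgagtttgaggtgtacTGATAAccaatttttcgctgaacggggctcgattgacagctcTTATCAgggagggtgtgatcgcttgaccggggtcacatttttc

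The next 3 show members at known intestinal genes and were picked after their values were seen. The peak of ges-1, which codes for the gut esterase whose upstream GATA sites were the bait used to isolate ELT-2, lies at chrV:1433202-1433302. The peak of ifb-2, an intermediate filament of the intestinal cell cortex, lies at chrII:5748558-5748658. The peak just upstream of cel-mir-60, a microRNA made in the intestine, lies at chrII:6328806-6328906. It is labelled by the microRNA here, though its nearest protein-coding 5′ end is that of set-4.
ges-1: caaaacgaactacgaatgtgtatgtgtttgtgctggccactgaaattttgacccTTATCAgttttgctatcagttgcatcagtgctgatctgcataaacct
ifb-2: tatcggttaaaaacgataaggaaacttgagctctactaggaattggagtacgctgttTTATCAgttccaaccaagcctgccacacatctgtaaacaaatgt
cel-mir-60: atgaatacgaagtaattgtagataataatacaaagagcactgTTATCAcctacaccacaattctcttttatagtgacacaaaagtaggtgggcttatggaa

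The last 3 are strong members with no GATA on either strand within 50 bp of the summit. Capitals mark AGAGAC in the first, CACGTG in the second and the reverse complement of GAGAGA in the third, at chrV:1151445-1151545, chrII:13077865-13077965 and chrV:6000396-6000496. The third was chosen, after the values were seen, as the strongest such member with GAGAGA.
cmd-1: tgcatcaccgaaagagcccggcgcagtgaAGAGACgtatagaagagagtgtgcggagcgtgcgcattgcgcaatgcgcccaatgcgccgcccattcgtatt
F42G4.6: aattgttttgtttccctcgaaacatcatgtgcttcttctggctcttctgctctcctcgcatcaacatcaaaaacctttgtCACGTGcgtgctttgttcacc
fos-1: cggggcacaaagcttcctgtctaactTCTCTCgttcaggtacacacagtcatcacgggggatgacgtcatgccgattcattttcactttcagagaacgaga

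The strongest intergenic peaks ranked with the strongest peaks anywhere in the genome. Signal is the enrichment value that the authors' peak caller gave each peak. Its scale differs between the list from both replicates and the list of each replicate, so it was compared only within a list. The member near Y37A1A.2 had a signal of 3490 in the thresholded list, where it ranked 4th of 5443, and it had 1985 in replicate 1 and 1509 in replicate 2. It lay 6381 bp upstream of Y37A1A.2 and 14976 bp upstream of Y37A1A.4, in a gap from which both genes read outward. The member near zig-13, which codes for an immunoglobulin-domain protein, ranked 7 in the thresholded list and also 7 in each replicate, with signals of 1560 and 1339 in replicates 1 and 2. Its window holds 3 copies of TGATAA, and 6 copies lie within 150 bp of its summit. The member near C08E8.3, at 3875 bp upstream, ranked 11, with signals of 1327 and 951 in the replicates. Of the 20 strongest peaks of the whole list 4 were members, and of the 100 strongest 22 were, where members were 886 of all 5443 peaks.

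The other 12 of the 15 strongest members, with signals of 1151 to 1930, stood near genes of varied function. R12C12.9 had a member 1871 bp upstream (replicate signals 1072 and 869). ampd-1, an AMP deaminase, had one 1181 bp upstream (935 and 620), and F26G1.5 one 1312 bp downstream of its 5′ end (798 and 672). All 3 were in the 50 strongest peaks of both replicates. The member of ifb-2 lay 1580 bp upstream (755 and 637), that of the xanthine dehydrogenase gene xdh-1 lay 1474 bp upstream (831 and 539), and that of the nucleoside transporter gene ent-4 lay 1518 bp upstream (718 and 540). A member between mec-3, which codes for a LIM homeodomain protein of touch neurons, and ugt-43, a UDP-glucuronosyltransferase gene, lay 1492 bp upstream of mec-3 and 1229 bp upstream of ugt-43 (660 and 587). A pair of genes that read away from each other thus flank it at similar distances. The member near the insulin-like peptide gene ins-11 lay 614 bp downstream of its 5′ end, beyond the end of this short gene (725 and 505). ftn-2, a ferritin gene of iron storage, had a member 1205 bp upstream (623 and 537). Those near C05A2.4 and K02E7.7 had 676 and 546, and 594 and 557. All 15 had TGATAA within 50 bp of the summit, and 7 of the 15 nearest genes also had an ELT-2 summit in their promoter.

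The members farthest from any protein-coding 5′ end included one of these 15. It lay 13461 bp upstream of irld-18 and 22103 bp upstream of dmd-6, with replicate signals of 749 and 609 and ranks of 41 and 40. The next farthest, 12942 bp upstream of C30G12.2, had signals of 303 and 251. The one 12832 bp upstream of C31H1.2 had 175 and 78.3. Distance from a gene thus went with high and with low signals among these 3.

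A larger share of members than of promoter peaks was among the strongest peaks. Signal ran up to 3490 with a median of 262 in members and up to 6412 with a median of 251 in autosomal promoter peaks. The strongest 25% of autosomal peaks held 259 of 886 members (29.2%) and 589 of 2447 promoter peaks (24.1%), a difference of 5.16 points (95% Newcombe interval 1.78 to 8.66). Ranked by each replicate's own signal, the difference was 3.79 points (0.441 to 7.26) in replicate 1 and 5.06 points (1.68 to 8.55) in replicate 2. The interval reached past 0 when promoters were drawn from 3000 bp upstream to 500 bp downstream, with 4.55 points (-0.125 to 9.62). Against the 539 autosomal intron peaks the difference was 4.37 points, with an interval of -0.423 to 9.01 that holds 0.

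All 886 members overlapped a peak of the relaxed list of replicate 1, which held 17177 peaks, and 883 overlapped one of the 18929 of replicate 2. The median rank of members was 2434.5 in replicate 1 and 2499 in replicate 2, and the lowest ranks were 10954 and 10334. A member took the rank, signal and summit of its strongest overlapping peak in each replicate. That peak was shared with another member for 52 members in replicate 1 and 48 in replicate 2, so the replicate values below count some peaks more than once. Of the members, 746 (84.2%) were among the 5443 strongest peaks of both replicates, against 2083 of 2447 promoter peaks (85.1%) and 84.9% of all thresholded peaks. The difference of members from promoter peaks, -0.926 points, had an interval of -3.81 to 1.76. With the autosomal peaks in 4 equal classes by signal, all members of the 2 strongest classes were among them, then 92.3% in the third class and 40.1% in the weakest. All promoter peaks of the 2 strongest classes were among them too, then 95.9% in the third class and 43.2% in the weakest. The members' share thus differed by -3.60 points in the third class (-8.24 to -0.140), an interval that leaves out 0, and by -3.10 points in the weakest (-10.7 to 4.75). Over the 318 intergenic peaks of the X chromosome the share was 90.6%, and the members' share differed from it by -6.37 points (interval -10.1 to -2.02).

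**Figure D1:**
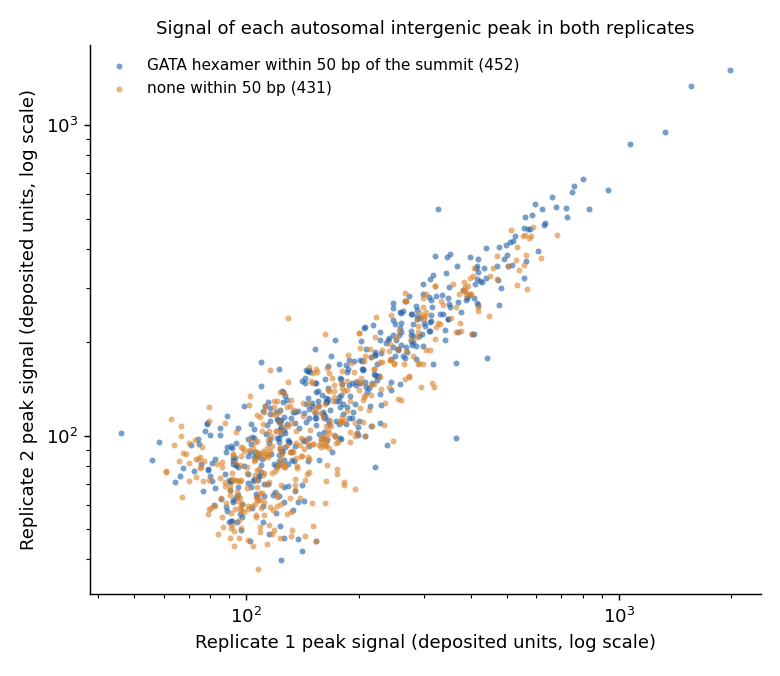
Peak signal of the members in replicate 1 (x axis) and replicate 2 (y axis), both in the deposited units on log scales, for the 883 members with a peak in both. Blue points have the GATA hexamer within 50 bp of the summit and orange points do not. Signals rise together, the strongest points are blue, and the scatter widens below about 100 on the y axis.

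Across members, Spearman's rho of the 2 replicates' signals was 0.85 (883 members). This is a description, since the list was admitted on the ranks of both replicates, and the signals of both were taken at these same places. The summits of the 2 replicates lay a median of 15 bp apart in members and 14 bp apart in promoter peaks, and within 50 bp in 83.5% of both.

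Members had TGATAA at the summit far more often than in neighbouring sequence. On either strand, 453 of 886 members had TGATAA at 50 bp or less from the summit (51.1%, Wilson interval 47.8 to 54.4), against 9.59% of windows centred 500 bp to the right and 11.1% of those to the left. Of the 3369 autosomal peaks that are not members, 43.4% had it. Of the members, 409 had it at the summit and not in the right flank and 41 the reverse (exact McNemar test, two-sided, p = 2.1e-77). Windows of the same width held it at 9.07% of all positions that met the rule on the autosomes, where 19295217 bases were eligible. At each replicate's own summits the members' share was 50.1% and 51.9%. Member windows were 39% G or C at the summit and 33.7% in right flanks, whose part in the motif shares was not tested. With a narrower window of 25 bp on either side it was 30.8%, against 4.29% in the flank.

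**Figure D2:**
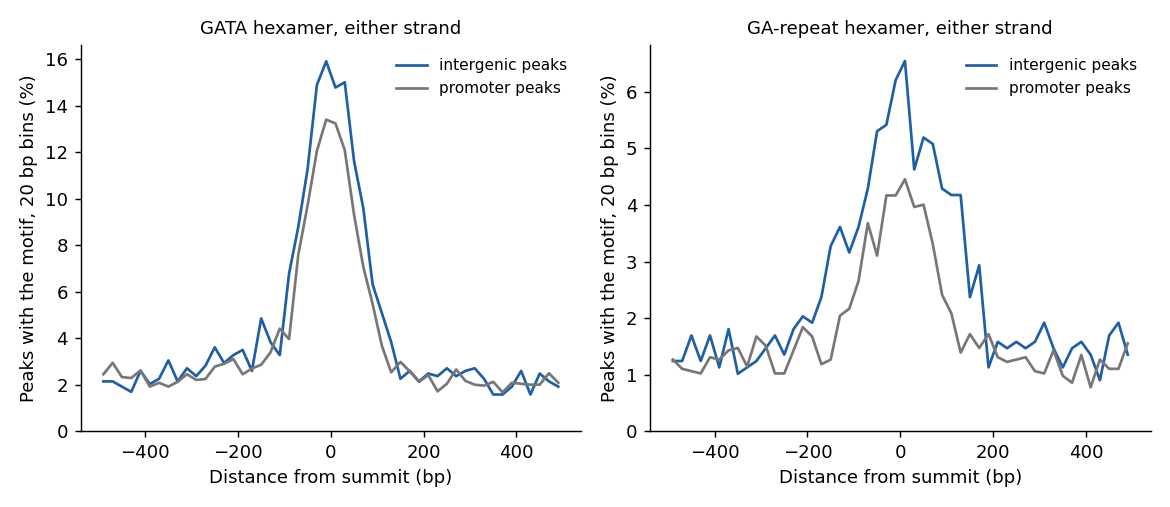
Share of peaks (y axis, %) with the motif centred in each 20 bp bin at a given distance from the summit (x axis, bp), for the 886 intergenic members (blue) and the 2447 autosomal promoter peaks (grey). The left panel shows TGATAA and the right panel GAGAGA, on either strand. TGATAA reached 15.9% in members and 13.4% in promoter peaks in the bin just left of the summit, and GAGAGA reached 6.55% and 4.45% just right of it.

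Members carried the site more often than promoter peaks and not more often than intron peaks. The share of 51.1% in members stood against 43.1% of promoter peaks, a difference of 8.06 points (4.22 to 11.9). At the summits of replicate 1 it was 6.67 points (2.84 to 10.49), and at those of replicate 2 it was 9.44 points (5.60 to 13.3). With the window of 25 bp the difference was 4.25 points (0.799 to 7.81). The share of intron peaks was 56.0%, and the members' share differed from it by -4.90 points (-10.2 to 0.442). At the replicates' own summits that difference was -6.10 points (-11.4 to -0.756) and -2.31 points (-7.62 to 3.04). Against intergenic peaks of X, at 44.3%, the difference was 6.79 points (0.384 to 13.1), and at the summits of replicate 1 its interval held 0 (5.46 points, -0.944 to 11.8).

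The share with TGATAA was higher among strong members. In the 4 signal classes, strongest first, it was 61.8%, 55.4%, 43.5% and 41.1% of members, and 53.5%, 44.5%, 40.2% and 34.3% of promoter peaks. Members thus had a higher share than promoter peaks in each class. The difference left out 0 in the strongest class (8.30 points, 1.05 to 15.3) and the second (10.9 points, 3.16 to 18.5), and not in the third (3.26 points, -4.38 to 11) or the weakest (6.78 points, -0.788 to 14.5). In the weaker 50% of the peaks it was 4.93 points (-0.480 to 10.4). Intron peaks had 58.2%, 66.0%, 46.9% and 52.2% in the same classes. The members' share was lower than theirs in the second class (-10.6 points, -20.5 to -0.119) and the weakest (-11.1 points, -21.6 to -0.379). The interval held 0 in the strongest class (3.57 points, -6.47 to 13.8) and the third (-3.40 points, -14.2 to 7.44).

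**Figure D3:**
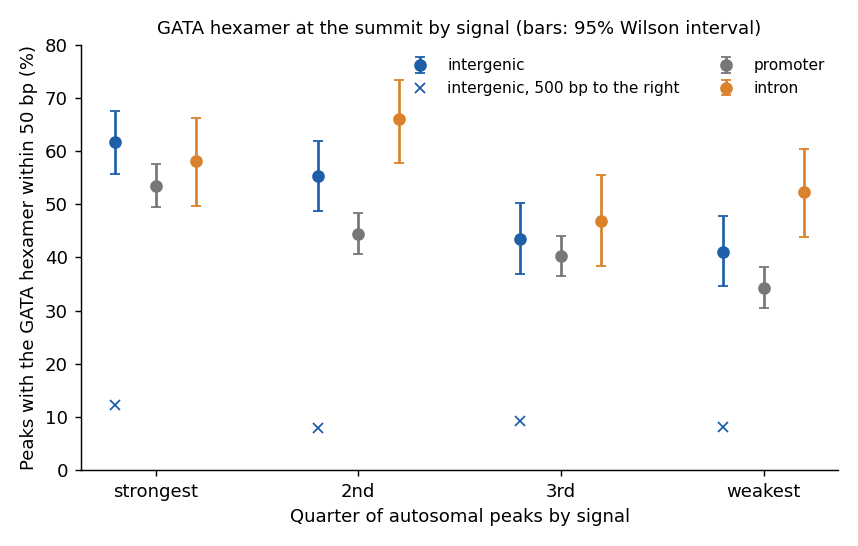
Share of peaks with the GATA hexamer TGATAA within 50 bp of the summit (y axis, %) in 4 equal classes of autosomal peaks ranked by signal (x axis), for intergenic members, promoter peaks and intron peaks, with 95% Wilson intervals as bars. Crosses give the same share in members 500 bp to the right of the summit. Members run at 61.8%, 55.4%, 43.5% and 41.1%, above the promoter peaks in each class, and the crosses lie between 7.98% and 12.4%.

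Several copies were common in members and went with higher signal. Within 150 bp of the summit, 239 members had no TGATAA, 258 had 1, 240 had 2, 107 had 3 and 42 had 4 or more, with a mean of 1.40 in members against 1.14 in promoter peaks. Members with 2 or more made up 43.9%, against 35.6% of promoter peaks, a difference of 8.27 points (4.51 to 12.1). Intron peaks had 2 or more in 47.9%, from which the members' share differed by -3.96 points (-9.28 to 1.36). Median signal in the thresholded list was 216 in the members without a copy and 258, 299 and 404 in those with 1, 2 and 3 copies. It reached 547 in those with 4 or more. The same order held in each replicate, with medians of 129, 146, 171, 221 and 312 in replicate 1 and 93.1, 113, 131, 171 and 234 in replicate 2.

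Among related forms, GATAAG was frequent in members. The hexamer CTTATC, the reverse complement of GATAAG, was at the summit of 36.9% of members. It was in 2.82% of right flanks and 4.29% of left flanks, and at 3.52% of eligible positions. A G followed TGATAA in 45.8% of the 666 copies at summits and in 14.3% of the 91 copies in right flanks, and a C preceded it in 34.4% and 20.9%. WGATAR, the general GATA site in which W is A or T and R is A or G, was at 64% of member summits against 19.1% of right flanks. In left flanks the share with WGATAR was 23.6%. AGATAA, the other common form, was at 12.1% of member summits, 6.43% of right flanks and 6.66% of left flanks. TGATAA and WGATAR overlap, as every TGATAA is also a WGATAR. Among all hexamers, TGATAA and CTTATC had the largest share at summits relative to the 2 flanks, by 40.8 and 33.4 points.

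Other motifs were sought on both strands. CACGTG, the E-box of many basic helix-loop-helix factors, was at 7.79% of member summits, 2.03% of right flanks and 1.42% of eligible positions. TGCGTCTC was at 5.30%, 1.13% and 0.601% of these. The forkhead-type sites TGTTTAC and TGTTTGC were at 2.37% and 3.16% of member summits, against 0.790% and 2.14% of right flanks. They were at 1.35% and 2.48% of left flanks and at 1.28% and 1.66% of eligible positions. The members' interval for TGTTTGC, 2.20 to 4.53, held its left-flank share. TGTTTGC was rarer in members than in promoter peaks, where it was at 5.93% (difference -2.77 points, -4.16 to -1.14). It was at 2.78% of intron peaks and 2.52% of intergenic X peaks, and the members' share differed from these by 0.377 points (-1.63 to 2.13) and 0.645 points (-1.91 to 2.49). The bZIP-type site TGACTCA was at 1.69% of member summits (1.03 to 2.77), against 1.02% of right flanks, 0.451% of left flanks and 0.934% of eligible positions. TGACGTCA, another bZIP-type site, was at 0.677% of member summits, 0.677% of right flanks, 0.903% of left flanks and 0.546% of eligible positions.

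GA repeats stood out in the members that lacked TGATAA. The hexamer GAGAGA, or its reverse complement TCTCTC, was at 30.7% of the summits of the 433 members without TGATAA, against 9.27% of the 453 with it, a difference of 21.4 points (16.3 to 26.5). It was in 7.16% of right flanks of the members without TGATAA and at 5.55% of eligible positions. At the summits of replicate 1 the shares were 28.5% and 8.78%, and at those of replicate 2 they were 27.5% and 10.3%. Promoter peaks had GAGAGA in 19.7% without TGATAA and in 10.1% with it, a difference of 9.61 points (6.81 to 12.4). The share of members without TGATAA differed from that of promoter peaks without it by 11.05 points (6.35 to 15.97). Over all members the share was 19.8%, against 15.5% of all promoter peaks and 9.75% of intergenic X peaks, and it was 15.8% of all 5443 peaks. It was 18.6% of intron peaks, and the members' share differed from that by 1.20 points (-3.10 to 5.31).

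TGCGTCTC behaved likewise in members, at 9.01% without TGATAA and 1.77% with it, a difference of 7.24 points (4.35 to 10.4). In promoter peaks it was at 8.11% without TGATAA and 2.18% with it (5.93 points, 4.23 to 7.64). CACGTG did not separate members without TGATAA from those with it, at 8.78% and 6.84% (1.93 points, -1.63 to 5.56). The 204 members without any GATA within 50 bp, 23% of all, had GAGAGA in 32.8% and AGAGAC in 28.9%, against 6.13% and 2.70% in their flanks. By the share at summits minus that in flanks, these 2 hexamers were the highest of all in these members. Median signal was 236 in members without TGATAA and 296 in those with it.

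The 3 strongest members without a GATA core were strong in both replicates. The one near cmd-1, the calmodulin gene, lay 4776 bp upstream inside a lincRNA gene and had 586 and 469 in replicates 1 and 2. The one near F42G4.6 lay 1463 bp upstream and had 579 and 441. The one near upp-1, a uridine phosphorylase gene, lay 1297 bp upstream and had 573 and 433, and 5 copies of TGATAA lay within 150 bp of its summit though none lay within 50 bp.

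Members lay nearer to gene starts than the sequence open to them. The median distance to the nearest 5′ end was 2174 bp for members and 2640 bp for eligible bases, and members ranged from 266 to 13461 bp. Density was 59.9 members per Mb of eligible sequence at over 1000 to 2000 bp, 44.4 at over 2000 to 5000 bp and 24.8 beyond 5000 bp, against 45.9 over all eligible sequence. Upstream of the nearest 5′ end lay 641 members (72.3%, 69.3 to 75.2), against 63.6% of eligible bases, a difference of 8.75 points (5.72 to 11.6). Density was 52.2 per Mb upstream and 34.9 per Mb downstream.

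No trend of the motif or the signal with distance stood out beyond the intervals among members. The 33 members at 1000 bp or less, all downstream of the 5′ end, had TGATAA at 60.6% of summits (43.7 to 75.3), and 39.4% of them were in the strongest 25% of peaks. TGATAA was at 49.2% of summits at over 1000 to 2000 bp, 50.5% at over 2000 to 5000 bp and 57.9% beyond 5000 bp, with Wilson intervals that overlap (44.1 to 54.3, 45.6 to 55.5 and 47.8 to 67.3). Median signal was 265, 257 and 265 in these groups, and 267 in the 33 nearest members. On either side of the promoter limit, the 81 members at over 1000 to 1200 bp upstream had a median signal of 265 and TGATAA in 53.1%. The 145 promoter peaks at over 800 to 1000 bp upstream had 249 and 58.6%.

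**Figure D4:**
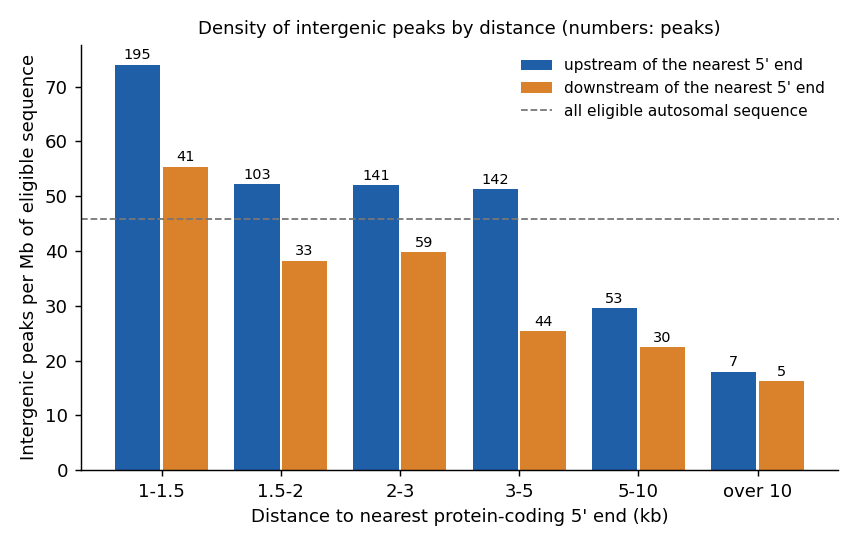
Intergenic members per Mb of eligible sequence (y axis) by distance to the nearest protein-coding 5′ end in kb (x axis), upstream in blue and downstream in orange, with the number of members above each bar and the density over all eligible autosomal sequence as a dashed line. Upstream density is 74.0 per Mb at 1 to 1.5 kb and 51.3 at 3 to 5 kb, then 29.5 at 5 to 10 kb. Downstream density falls below the dashed line beyond 1.5 kb.

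Gaps whose 2 flanking genes read towards each other held few members. Of the members, 87 (9.82%, 8.03 to 11.96) lay in such convergent gaps, which made up 17.6% of eligible sequence, with a density of 25.7 per Mb. Divergent gaps held 266 (30.02% of members, 28.8% of eligible sequence, 47.9 per Mb), and gaps between genes on the same strand held 533 (60.2% and 53.5%, 51.6 per Mb). The share with TGATAA was 47.1%, 53.0% and 50.8% in these 3 kinds.

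Some gaps held several members. The 886 fell in 640 of the 7271 gaps with an eligible base, and 164 gaps held 2 or more and together 410 members (46.3%). These 164 gaps made up 6.54% of eligible sequence, with a median of 6160 eligible bases, against 2719 in the 476 gaps with 1 member and 1228 over all gaps. How many such gaps their lengths alone would give was not computed. Summits close together can rest on 1 peak, as 52 members shared their replicate 1 peak with another member, 48 shared their replicate 2 peak, and 2 had the same start and end. Counted once per replicate peak, 860 members were left, and 152 gaps held 2 or more of them. The nearest other ELT-2 summit of any class lay a median of 2038 bp away, within 1000 bp for 21% of members and within 5000 bp for 72.6%. A set of 8 gaps held 5 or 6. The 7.43 kb gap between F59A6.2 and nsy-1, a MAP kinase kinase kinase gene of innate immunity and neuron identity, held 6 within 4.11 kb, with signals of 195 to 841 and TGATAA at only 1 summit. A pair of these shared a replicate 1 peak. The 18.6 kb gap between snt-1, the synaptotagmin gene, and egl-27 held 6 with signals of 149 to 443, of which 2 had TGATAA and 3 had GAGAGA. The gap between asp-13, an aspartyl protease gene, and ZC190.4 held 5 with signals of 172 to 1048, 4 of them with TGATAA. The 7.13 kb gap between lpin-1, which codes for lipin of fat metabolism, and letm-1 held 5 with signals of 144 to 679, and the gap between ZC250.4 and let-418, a chromatin remodeller gene, held 5 with signals of 154 to 869. The other 3 groups of 5 lay between pals-17 and pals-16, C30G12.4 and C30G12.2, and C45E1.4 and K09H9.9.

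The 5 autosomes differed in density. It was highest on II, with 57.7 members per Mb of eligible sequence (206 members), then 51.0 on III (142), 46.4 on I (130), 43.7 on V (225) and 36.6 on IV (183). Each autosome gave a similar share of its own peaks, between 19.6% and 22.05%, where eligible sequence made up 18.6% to 28.6% of its length. Over all autosomes members were 20.8% of peaks (19.6 to 22.1) and eligible sequence was 23.4% of length. With promoters of 500 bp upstream to 100 bp downstream the share was 28.4% and eligible sequence 28.1%, so the lower share of peaks did not hold under that definition.

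The outer 25% of each autosome's length at either end held fewer members than their sequence would give. These ends held 362 members (40.9%) against 53.6% of eligible bases, a difference of -12.7 points (-15.9 to -9.44), or 35.0 against 58.5 per Mb in the middle. Each autosome had the lower density outside, by the widest margin on II (37.6 against 79.1 per Mb) and the narrowest on III (45.8 against 56.3). On I and III the interval of the members' outer share held the eligible share. It was 38.6 to 55.5 against 53.3% on I, and 37.1 to 53.3 against 50.2% on III. Soft-masked (repeat) sequence held 17.7% of member summits and 41.3% of eligible bases. With it left out, an alternative added after seeing the data, the difference was -8.68 points (-12.2 to -5.07). How far reads could be placed in repeats was not tested.

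**Figure D5:**
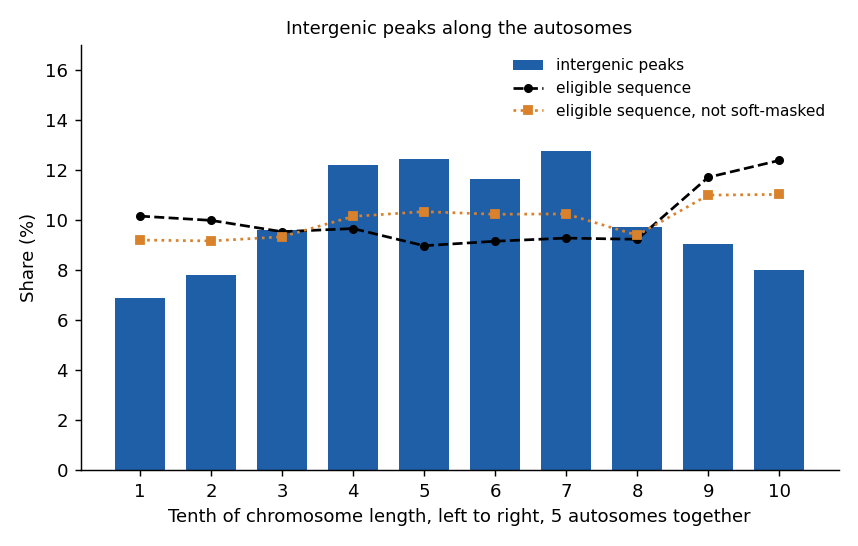
Share of intergenic members (bars), of eligible sequence (black) and of eligible sequence outside soft-masked bases (orange), in % (y axis), in 10 equal parts of chromosome length from left to right (x axis), summed over the 5 autosomes. Members make up 6.88% in part 1, 12.8% in part 7 and 8.01% in part 10, where eligible sequence gives 10.2%, 9.27% and 12.4%.

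Genes nearest to a member more often had an ELT-2 promoter peak too. The 886 members had 706 nearest genes, which is 4.09% of the 17242 autosomal protein-coding genes, and 138 of these were nearest to 2 or more. Of the 706, 238 (33.7%) had an ELT-2 summit in their promoter, against 1118 (12.6%) of the other 8840 genes nearest to some eligible base and 16.7% of all autosomal genes. The difference was 21.1 points (17.6 to 24.7). It was 12.3 points (9.72 to 15.1) with promoters of 500 bp upstream to 100 bp downstream and 13.8 points (10.1 to 18.0) in the stronger 50% of the peaks. By the length of eligible sequence nearest to the gene, it was 28.4 points up to 1000 bases, 23.6 at over 1000 to 3000, 20.4 at over 3000 to 6000 and 14.5 beyond, each with an interval above 0. The other 468 nearest genes had no promoter peak.

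Nearest genes included several of intestinal function, read from 13 lists that were chosen with earlier results of these data known. Of the brush border and transport list, 7 of the 8 autosomal genes had a promoter peak. Of these 8 genes, 4 were nearest to a member, and all 4 had a promoter peak. Beside ifb-2, these were nhx-2, a sodium-proton exchanger gene of the intestine, eps-8, whose product shapes microvilli, and pgp-1, a P-glycoprotein gene. nhx-2 had a member 1876 bp upstream with replicate signals of 419 and 372 and a weaker one 1022 bp upstream with 116 and 163. eps-8 had one 4332 bp upstream with 297 and 243.

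Of the digestive enzyme list 5 of 18 genes were nearest to a member. asp-1, an aspartyl protease gene of the intestine, had one 2717 bp upstream with 555 and 322. lys-2, a lysozyme gene, had one 1180 bp downstream of its 5′ end with 288 and 255. ges-1 had one 1115 bp upstream with 160 and 135 and no promoter peak, so its site, shown above, lay just outside the promoter window of 1000 bp.

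Of the lipid list 7 of 21 genes were nearest to a member. The fatty acid desaturase genes fat-1 and fat-2 are neighbours, and neither had a promoter peak. fat-1 had a member 1257 bp upstream with 408 and 347 and one 3239 bp downstream of its 5′ end with 429 and 312. fat-2 had one 1207 bp upstream with 404 and 327. The 3 signals were thus alike within each replicate. sbp-1, a sterol regulatory factor gene, had a member 2363 bp upstream with 166 and 140.

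Among the intestinal regulators 3 of 13 were nearest to a member. daf-16, the FOXO factor of insulin signalling, had one 4522 bp downstream of the nearest of its 5′ ends with 418 and 253. pqm-1, a zinc finger factor gene of the stress response, had 3 between 1329 and 3764 bp upstream, and the strongest of these in the thresholded list had 194 and 161. nhr-68, a nuclear hormone receptor gene, had one with 100 and 79.3. Of the metal and heme list 1 of 13 was nearest, ftn-2, and of the immune list 1 of 15, irg-5, with 170 and 153.

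Lists of other tissues had few or none, and so did the endodermal GATA and yolk lists, which are not of other tissues. The neuron share, 6.25%, was close to the 7.69% of the metal and heme list and the 6.67% of the immune list. Of 16 neuron genes 1, snt-1, was nearest to a member, at 11040 bp downstream of its 5′ end with 228 and 215. None of 9 body wall muscle, 4 pharynx, 12 hypodermis or 13 germ line genes on autosomes was nearest to a member, and none of the 4 endodermal GATA genes or the 1 autosomal yolk gene. These lists are short, and 4.09% of all autosomal genes were nearest to a member. Counts this small cannot tell the lists of this paragraph from that share. Only 9546 genes were nearest to some eligible base. Among these the share nearest to a member rose with the eligible sequence at the gene. It was 3.33% up to 1000 bases and 17.7% beyond 6000, and none of the 13 lists was matched for this.

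A few members lay near the 5′ ends of microRNA genes. There were 7 in the window of 1000 bp upstream to 200 bp downstream of a microRNA gene's annotated 5′ end (0.790% of members, 0.383 to 1.62, an interval that holds the 0.404% of eligible bases). The strongest lay 57 bp upstream of cel-mir-60, with 398 and 377 in the replicates and TGATAA at its summit. Its nearest protein-coding 5′ end was that of set-4, and it lay 2485 bp downstream of that end. The next lay 244 bp upstream of cel-mir-83 with 240 and 204, also with TGATAA. The other 5 were weaker, with 157 and 118 or less, and had no TGATAA at the summit. They were those of cel-mir-52, which had a pair, cel-mir-80, cel-mir-72 and cel-mir-53. The weaker of the cel-mir-52 pair lay 78 bp downstream of the 5′ end.

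Another 10 members lay in the same window of lincRNA genes (1.13% of members, 0.614 to 2.07, against 0.534% of eligible bases), and 2 of these belonged to linc-138. The strongest lay 65 bp downstream of the 5′ end of linc-135, with 470 and 380, and that of linc-167 lay 91 bp downstream with 408 and 277. That of linc-69 lay 49 bp downstream with 377 and 251. These 3 summits were thus at the annotated start of the transcript.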

How the data were processed

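ChIP-seq peak lists of 1 group with 2 biological replicates were used on build ce11. Per the notes deposited with the files, each replicate has a relaxed list made from 1 alignment and a control. A pooled list was made from the 2 replicates, and these 3 lists gave the thresholded one. The aligner is not given in the sources used here, nor are the peak caller and the IDR threshold. The ce10 lists were left out. The signal score of each peak and its summit offset are the authors' deposited values. Scores rank peaks within 1 list only. No read counts were given, so depth and the precision it allows are unknown.

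Genes came from Ensembl release 115 and sequence from RefSeq, both WBcel235 (ce11), with 19973 protein-coding genes. Coordinates are 1-based. A replicate's value at a member is that of its strongest overlapping peak. Motif windows reach 50 bp to each side of a summit, and flank windows are centred 500 bp from it. Shares carry 95% Wilson intervals and differences 95% Newcombe intervals, taken as past the threshold where they leave out 0. Eligible sequence is every autosomal base that meets the rule for a member. Named members were the 15 strongest, the strongest of each autosome, the 3 farthest from a 5′ end, the 3 strongest without a GATA core and up to 3 nearest genes of each list by signal; the other genes named were chosen after their values were seen. Of the listed symbols, 1 of the brush border list (opt-2) was not matched. The labels call the replicates biological but do not say whether they came from separate cultures, so how far their spread is technical is unknown. The members, lists and motifs were chosen with earlier results of these data known. The programs were tested on simulated data. The software was SciPy 1.17.1, NumPy 2.4.6, matplotlib 3.10.9, pandas 2.3.3 and Python 3.11.15.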

Additional observations from a re-analysis of the deposited data

How the results depend on the processing

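The autosomal intergenic share, 20.8%, moves with its definition: it was 28.4% with promoters of 500 bp upstream to 100 bp downstream, 8.55% with 3000 bp upstream to 500 bp downstream, 19.3% without summits inside other annotated genes and 22.1% in the stronger 50% of the list. Eligible sequence was 23.4% of length at first, and 28.1%, 13%, 19.9% and 23.4% in these. The lower share of peaks was thus not kept with the narrowest promoters, where the interval (27.1 to 29.8) held the eligible share. The interval also held the eligible share in the last 2 (18.2 to 20.6 and 20.4 to 23.95). The excess of members in the strongest 25%, 5.16 points, was 4.55 points with the widest promoters, with an interval that held 0, and fewer members were left there. The TGATAA difference from promoter peaks, 8.06 points, was 4.93 points in the weaker 50% of the peaks, an alternative added after seeing the data, with an interval that held 0; the cause was not tested. The replicate-agreement difference from promoter peaks, -0.926 points, changed sign with the widest promoters (1.80) and with 50% as many (2.96) or 1.5 times as many (0.455) strongest peaks, and was 0 in the stronger 50%, each with an interval that held 0. The other results kept their direction and their side of the threshold under every alternative run, as did those for TGATAA with 1 peak per run within 1000 bp (8.49 points). The 5443 strongest peaks of 1 replicate were also classed in place of the thresholded list. Of their autosomal intergenic peaks, 48.2% of 899 in replicate 1 and 52.5% of 869 in replicate 2 had TGATAA. The differences from promoter peaks were 6.14 and 10.1 points. No paired analysis was possible because there is 1 group. Depth is unknown, and replicates number 2, so agreement between them is the only check on error.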

Other observations

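Other kinds of annotated gene differed in how often they held or adjoined members. Pseudogenes held 16 members (1.81%) and 12.2% of eligible bases, and outside soft-masked sequence 1.51% against 15.4%. Genes annotated as ncRNA held 31 members (3.50%, 2.48 to 4.92) against 1.36% of eligible bases, and lincRNA genes held 16 (1.81%, 1.11 to 2.91) against 0.789%. The window of 1000 bp upstream to 200 bp downstream of ncRNA genes held 130 members (14.7%, 12.5 to 17.2) against 8.52% of eligible bases, and that of piRNA genes held 54 (6.09%, 4.70 to 7.87) against 10.9%.

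Base composition changed at the summits. The windows at member summits were 39.0% G or C, against 33.7% in right flanks, 33.8% in left flanks and 34.4% of all eligible bases. The hexamer AAAAAT or its reverse complement was at 29.6% of summits and 54.8% of flanks, and AAAATT at 25.4% and 49.3%. How far these values move with the sequencing itself was not tested.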
